A study of Mus musculus with 4 samples.

Results

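The nuclear genes that encode the subunits of the oxidative phosphorylation machinery were examined in cultured mouse peritoneal macrophages with and without cholesterol 25-hydroxylase. The members were chosen by gene symbol alone (the Ndufa, Ndufb, Ndufc, Ndufs and Ndufv series, Sdha to Sdhd, and symbols beginning with Uqcr, Cox4 to Cox8 or Atp5). Of 23735 loci in the deposited table, 84 met this rule, and 82 of them encode subunits: 37 of complex I, 4 of complex II, 8 of complex III, 18 of complex IV and 15 of complex V. The other 2, Atp5s and Atp5sl, share the prefix but encode factors that are not subunits of the ATP synthase, and they were counted apart. Cox7a2l, kept here with complex IV, encodes a factor that joins complexes III and IV into supercomplexes, and the protein of Ndufa4, kept with complex I by its symbol, has since been assigned to complex IV.

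Both groups came from C57BL/6 mice 6 weeks old that were labelled ApoE-/-, that is, lacking apolipoprotein E. One group was labelled ApoE-/-/Ch25h+/+ (Ch25h_WT) and the other ApoE-/-/Ch25h-/- (Ch25h_KO). Each group held 2 libraries of total RNA, described as biological duplicates from 12 mice per group. How the mice were divided between libraries is not given in the sources used here, so p-values reflect library-to-library spread alone, which may be technical. The cells were elicited with 3% thioglycolate, a sterile irritant, 3 days before collection and then cultured in serum-containing medium, for a time that is not given in the sources used here.

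Each library listed 13813 to 13970 loci above 0 FPKM (fragment counts scaled to transcript length and library depth), with an implied depth of 9900000 to 12900000 fragments. Ch25h was 63.3 and 65.3 FPKM in Ch25h_WT and 4.25 and 5.53 FPKM in Ch25h_KO (limma adjusted p = 0.0031), in the direction of the labels. Apoe was 614 and 610 FPKM in Ch25h_WT and 3683 and 3373 FPKM in Ch25h_KO although all 4 libraries were labelled ApoE-/-, and a value for the whole locus does not tell a disrupted transcript from a functional one. The summed level of 6 mast cell markers was 223 to 229 FPKM in Ch25h_WT and 156 to 159 FPKM in Ch25h_KO, and that of 5 B cell markers 317 to 321 against 285 to 300.3 FPKM. The 5 listed neutrophil markers found summed to 70.7 to 80.9 against 114.5 to 115.6 FPKM. The 4 erythroid markers summed to 31.4 to 34.3 against 44.8 to 47.5 FPKM and the 6 mesothelial and fibroblast markers to 1.07 to 1.25 against 3.12 to 3.95 FPKM, both without overlap, and the 5 markers of proliferating cells to 28.6 to 29.1 against 24.4 to 25.2 FPKM. The 9 macrophage markers found were all tested and summed to 26730 to 27680 against 28110 to 28810 FPKM. The part of these differences in the values below was not tested, and in bulk RNA fewer cells of a type and less RNA per cell cannot be told apart.

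Oxidative phosphorylation takes place in the inner mitochondrial membrane. Complexes I and II take electrons from NADH and succinate, ubiquinone carries them to complex III, cytochrome c carries them to complex IV, and complex IV passes them to oxygen. Complexes I, III and IV pump protons, and complex V, the ATP synthase, uses the proton gradient to make ATP. Most subunits are encoded in the nucleus and imported, while the mitochondrial genome encodes a small core set, which is not analysed here. In macrophages, inflammatory activation is known for a shift from respiration towards glycolysis, and succinate oxidation by complex II is known to support inflammatory signalling.

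The promoters of these genes are known for shared motifs, of which those of the nuclear respiratory factors NRF1 and GABP (NRF2) and of YY1 are the classical ones. Promoter windows from 250 bases before to 50 bases after the start (RefSeq, GRCm38.p6, a later build than the mm9 of the expression table) matched 64 of 76 subunits that passed the filter described below and 3 of 6 that did not. The letters GCGCA, any base and then GCGC for NRF1, CCGGAAGT for GABP and AAGATGGC for YY1 were searched on both strands, and none of the matches in subunit promoters overlapped a match of another motif. The NRF1 letters stood in 26.1% of 69 windows of tested subunits, in 10.8% of the windows of all tested loci and in 4.60% of all windows in the table. They were not spread evenly, with 8 of 34 windows in complex I, 2 of 3 in complex II and 1 of 5 in complex III. In complex IV they stood in 1 of 10 windows (10%) and in complex V in 6 of 17. In the windows of tested subunits, of all tested loci and of the whole table, the YY1 letters stood in 14.5%, 4.84% and 2.75%. The GABP letters stood in 7.25%, 8.91% and 3.89%. These are matches of letters only, and no binding was measured.

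Stretches before the start, chosen after the values were seen, show the NRF1 letters in capitals for 1 subunit each of complexes IV, I and II. Cox6a1, whose window was the only 1 of 10 in complex IV with the NRF1 letters, holds 2 matches (GRCm38.p6 chr5:115349019-115349128, minus strand, from -170 to -61). Ndufb4 is shown with 1 of 3 matches in its window (chr16:37654454-37654573, minus strand) and Sdha likewise with 1 of 3 (chr13:74350281-74350308, minus strand).
Cox6a1: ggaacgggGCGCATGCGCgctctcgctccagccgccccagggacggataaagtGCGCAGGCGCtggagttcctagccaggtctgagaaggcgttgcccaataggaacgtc
Ndufb4: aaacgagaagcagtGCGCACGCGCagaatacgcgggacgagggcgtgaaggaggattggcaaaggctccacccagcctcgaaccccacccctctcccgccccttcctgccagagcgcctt
Sdha: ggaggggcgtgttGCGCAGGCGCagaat

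An isoform pair of complex IV is shown beside them because the 2 genes lie at opposite ends of the level scale: Cox8a, among the most abundant subunits here, and Cox8b, its isoform of heart and skeletal muscle, which was listed at 0 FPKM in all 4 libraries. The 120 bases before the start of Cox8a (chr19:7217617-7217736, minus strand) hold 9 CpG dinucleotides, and those of Cox8b (chr7:140900447-140900566, minus strand) hold 1. Neither stretch holds a whole match of the 3 motifs, so there are no capitals. The full Cox8a window holds 2 GABP matches, which reach beyond the stretch shown. Over full windows the CpG counts of tested subunits ran from 5 to 43, and those of the 3 matched subunits below the filter from 2 to 10. The count of 5 was that of Cox7b, at a mean of 53.6 FPKM. A relation of CpG count to level was not tested.
Cox8a: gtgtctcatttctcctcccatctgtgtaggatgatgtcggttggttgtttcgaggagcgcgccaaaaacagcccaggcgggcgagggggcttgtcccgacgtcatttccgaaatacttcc
Cox8b: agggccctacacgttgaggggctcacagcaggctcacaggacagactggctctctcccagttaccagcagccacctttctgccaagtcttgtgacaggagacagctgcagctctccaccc

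Among the 82 subunits, 76 averaged 1 FPKM or more across both groups and were tested: all 8 of complex III, all 15 of complex V, all 4 of complex II, 36 of 37 of complex I and 13 of 18 of complex IV. The 6 that did not pass were Cox4i2, Cox6b2, Cox7b2, Cox8b, Cox8c and Ndufa4l2, known as isoforms of lung, testis, muscle or hypoxic cells. Of these, 5 were listed at 0 FPKM in every library, and Cox6b2 was at 0 in 3 libraries and at 0.356 FPKM in Ch25h_KO replicate 2. The filter used the mean of all 4 libraries and not the groups. The fragments behind a tested subunit, estimated from its FPKM, transcript length and the implied depth, ranged from 4.41 for Cox7a1 to 9263 for Atp5b. The counting error alone had a median coefficient of variation of 3.83% over the subunits. It was taken for each subunit at the library with the fewest fragments, so it is the largest of that subunit. The observed coefficient of variation, from 2 replicates each, had a median of 3.00% in Ch25h_WT and 3.72% in Ch25h_KO, and is not a like measure.

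Levels differed between subunits of the same complex, on a scale per transcript length (FPKM). The tested subunits of complex II lay closest together, with the highest, Sdhd, 1.51 times the lowest, Sdhc. In complex III the ratio of highest (Uqcrh, a hinge protein that binds cytochrome c1) to lowest (Uqcrc2, a core protein) was 4.20, and in complex V it was 4.69 (Atp5b, the catalytic beta subunit, over Atp5g1). Complex I, grouped by symbol, spanned 21.9-fold. Its lowest was Ndufa11 at 9.25, 10.7, 10.1 and 9.73 FPKM (here and below in the order Ch25h_WT replicates 1 and 2, Ch25h_KO replicates 1 and 2). Its highest was Ndufa4, since assigned to complex IV, at 201, 242, 219 and 208 FPKM, and the next was Ndufa3 at a mean of 137 FPKM. The catalytic core of complex I, which holds the flavin and the iron-sulfur clusters, lay low in that range, at a median of 36.9 FPKM over 7 genes against 56.6 FPKM over 29 tested accessory subunits. Cox4i1 was the most abundant of all subunits, at 445, 444, 455 and 449 FPKM. Many of these genes have processed pseudogenes, and the counting is not described, so single levels are uncertain to that extent.

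**Figure D1:**
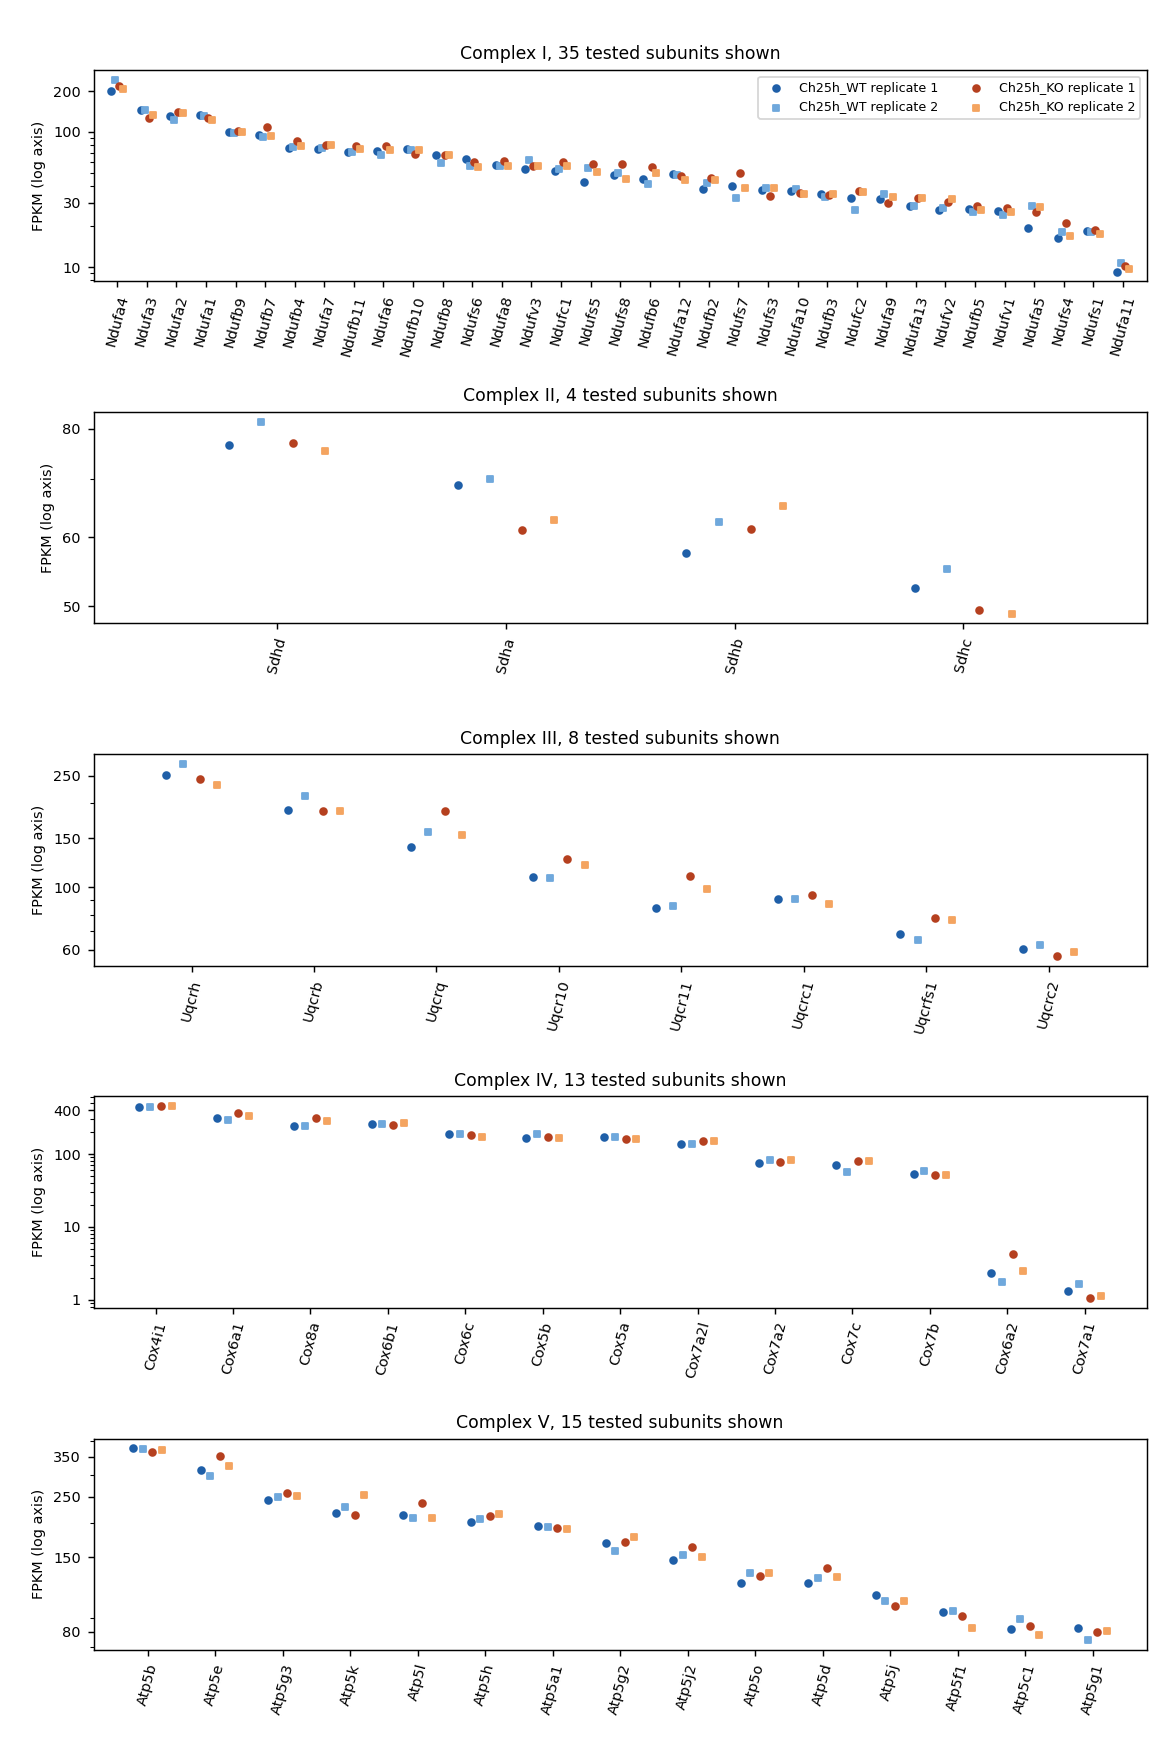
FPKM on a log axis of 75 of the 76 tested subunits in each library, with 1 panel per complex and subunits ordered by their mean; circles and squares are replicates 1 and 2, blue Ch25h_WT and red Ch25h_KO. The 4 libraries of a subunit lie close together against the span within a complex, which reaches from 1.29 (Cox7a1) to 448 (Cox4i1) in complex IV.

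Muscle isoforms made up a small share of complex IV transcripts in both groups. Cox6a2, the muscle isoform of subunit VIa, made up 0.758%, 0.595%, 1.13% and 0.730% of the summed FPKM of Cox6a1 and Cox6a2. Cox7a1, the muscle isoform of subunit VIIa, made up 1.73% and 1.94% of Cox7a1 plus Cox7a2 in Ch25h_WT and 1.34% and 1.35% in Ch25h_KO. The Cox7a1 values were 1.31, 1.64, 1.06 and 1.13 FPKM, from very few fragments. Markers of cardiac and skeletal muscle (5 genes) summed to at most 0.228 FPKM in a library, with Myl1, Myh6 and Actc1 at 0 in all 4. The membrane rotor subunit c of complex V is encoded by 3 genes whose mature proteins are known to be identical. Atp5g3 supplied 49.3% to 51.6% of their summed FPKM, Atp5g2 32.9% to 34.9% and Atp5g1 15.5% to 16.7%, and for each gene the ranges of the groups overlapped. Together they reached 495 and 481 FPKM in Ch25h_WT and 507 and 508 FPKM in Ch25h_KO.

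Ch25h_KO was compared with Ch25h_WT gene by gene. Both groups were labelled ApoE-/-, but Apoe itself differed between them (log2 change 2.52, limma adjusted p = 0.0013), so a difference in Ch25h and one in Apoe cannot be told apart in these libraries. None of the 76 tested subunits passed limma's test at a Benjamini-Hochberg adjusted p under 0.05 over 10074 tested loci, of which 44 (0.437%) passed. The smallest adjusted p was 0.12 (Cox8a). At unadjusted p under 0.05, 11 subunits were higher and 3 lower in Ch25h_KO, that is 14.5% and 3.95% of the subunits against 9.38% and 11.5% of all tested loci. All tested loci have longer transcripts than the subunits, and counts for loci of like length are given below. The groups did not overlap for 25 subunits on the higher side and 17 on the lower side (32.9% and 22.4%, against 23.4% and 30.3% of all tested loci). The median log2 change over the 76 subunits was 0.047 (log2(FPKM + 1), Ch25h_KO minus Ch25h_WT), with 48 above 0 and 28 below, beside a median of -0.014 over all tested loci. Summed over complexes, the subunits made up 1.17% of all FPKM in both Ch25h_WT libraries and 1.18% and 1.17% (1.165% before rounding) in the Ch25h_KO libraries.

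For 72 of 76 tested subunits the 95% interval of the log2 change lay wholly within a 1.5-fold change in either direction, against 93.2% of all tested loci. The exceptions were Ndufs7, Ndufa5, Cox7c and Cox6a2, and for 75 of 76, all but Cox6a2, the interval lay within a 2-fold change (98.6% of all tested loci). The point estimates ran from -0.24 (Cox7a1) to 0.47 (Cox6a2), both of them low genes, and the SE had a median of 0.065. At such levels adding 1 FPKM narrows the interval as well as the change. Cox7a1, counted among the 72, had a Ch25h_KO mean of 0.744 times that of Ch25h_WT, a counting coefficient of variation of 47.6% and a log2 change of -0.39 with a pseudocount of 0.1 FPKM, so its fold is not bounded by that interval. The value for Cox7a1 was -0.33 without Ch25h_WT replicate 1 and -0.14 without Ch25h_WT replicate 2. That for Cox6a2 was 0.18 without Ch25h_KO replicate 1 and 0.77 without Ch25h_KO replicate 2.

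**Figure D2:**
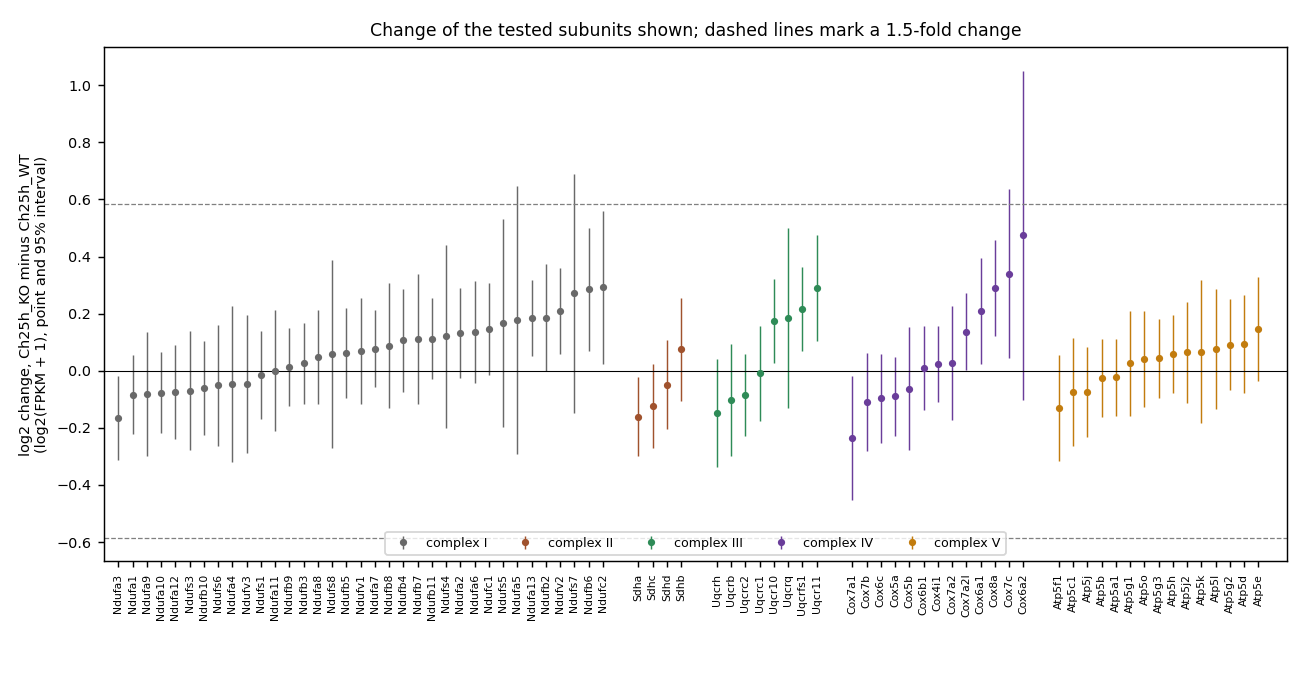
The log2 change (log2(FPKM + 1), Ch25h_KO minus Ch25h_WT) of 75 of the 76 tested subunits, grouped by complex and ordered by size, with the 95% interval of limma as bars and dashed lines at a 1.5-fold change. Most points lie within 0.2 of 0, and the intervals of 4 subunits cross a dashed line.

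Complex I is the largest complex and the entry point of electrons from NADH. Its 36 tested subunits had a median log2 change of 0.066, with 25 above 0 and 11 below. Ndufb6, an accessory subunit of the membrane arm, was 44.6 and 40.9 FPKM in Ch25h_WT and 55.2 and 49.5 FPKM in Ch25h_KO. Both Ch25h_KO values lay above both Ch25h_WT values, and the log2 change was 0.29 (SE 0.082, limma adjusted p = 0.17). Ndufv2, a core subunit that carries an iron-sulfur cluster beside the flavin site, was 26.5, 27.4, 30.5 and 32.0 FPKM (log2 change 0.21, SE 0.057, limma adjusted p = 0.16). Ndufa13, also known as GRIM-19, was 28.5 and 28.4 FPKM in Ch25h_WT and 32.5 and 32.4 FPKM in Ch25h_KO, so that the replicates lay closer together than the groups (log2 change 0.19, limma adjusted p = 0.16). Ndufc2 was 32.3, 26.7, 36.6 and 35.7 FPKM, and most of its spread came from the Ch25h_WT libraries. Its log2 change of 0.29 was 0.43 without Ch25h_WT replicate 1 and 0.16 without Ch25h_WT replicate 2.

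On the other side, the accessory subunit Ndufa3 was 145 and 146 FPKM in Ch25h_WT and 126 and 132 FPKM in Ch25h_KO, without overlap (log2 change -0.17, SE 0.056, limma adjusted p = 0.21). Ndufa1, which is needed to build the membrane arm, was 133, 132, 127 and 123 FPKM, and Ndufa10 was 36.5, 37.9, 35.4 and 35.0 FPKM, both without overlap and each with limma adjusted p above 0.4. Of the 7 core subunits, 1 (Ndufv2) had groups that did not overlap. That is 14.3% higher and 0% lower, against 23.4% and 30.3% of all tested loci. Ndufs1, the largest iron-sulfur subunit, was 18.5, 18.1, 18.7 and 17.6 FPKM, and Ndufv1, which binds NADH, was 26.2, 24.3, 27.5 and 25.5 FPKM. Ndufs7, next to the ubiquinone site, was 39.6, 32.5, 49.6 and 38.2 FPKM, and Ndufs8 was 47.8, 49.8, 57.4 and 45.0 FPKM. In both of these genes Ch25h_KO replicate 1 was the highest library, while Ch25h_KO replicate 2 lay within or below the Ch25h_WT values. Ndufs3, an iron-sulfur protein subunit, had a log2 change of -0.069, and its groups overlapped. The median log2 change was 0.058 over the 7 core subunits and 0.078 over the 29 tested accessory ones.

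Complex II, succinate dehydrogenase, is also an enzyme of the citric acid cycle and has no mitochondrially encoded subunit. It was the one complex whose median change lay below 0 (-0.087 over 4 subunits). Sdha, the flavoprotein that oxidises succinate, was 68.9 and 70.0 FPKM in Ch25h_WT and 61.2 and 62.9 FPKM in Ch25h_KO (log2 change -0.16, SE 0.053, limma adjusted p = 0.20). Sdhc, a membrane anchor, was 52.5, 55.2, 49.5 and 49.0 FPKM (log2 change -0.12, SE 0.056, limma adjusted p = 0.30). In both genes each Ch25h_KO library lay below each Ch25h_WT library. The iron-sulfur subunit Sdhb was 57.6, 62.5, 61.4 and 65.1 FPKM and the second anchor Sdhd 76.5, 81.4, 77.0 and 75.4 FPKM, with overlapping groups. The ratio of Sdha to Sdhb was 1.20 and 1.12 in Ch25h_WT and 0.997 and 0.965 in Ch25h_KO. The difference between complex II and the other complexes was not tested, and Sdha and Sdhc have the longest transcripts of all subunits, 2900 and 3171 bases.

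Complex III passes electrons from ubiquinol to cytochrome c. Its 8 subunits split evenly, 4 above 0 and 4 below, with a median log2 change of 0.083. Those higher in Ch25h_KO without overlap included Uqcrfs1, the Rieske iron-sulfur protein that is the catalytic subunit moving between the electron sites, at 68.0 and 64.9 against 77.9 and 76.8 FPKM (log2 change 0.22, SE 0.056, limma adjusted p = 0.15). The small membrane subunit Uqcr11 was 84.8 and 85.6 against 110 (109.95) and 98.9 FPKM (log2 change 0.29, SE 0.071, limma adjusted p = 0.14). Uqcr10, its neighbour in the complex, was 109, 108, 126 and 120 FPKM (119.9), with a log2 change of 0.18. The values of Uqcrh (251, 276, 244 and 231 FPKM), Uqcrb (189, 213, 187 and 187 FPKM) and the core protein Uqcrc2 (60.4, 62.4, 57.0 and 58.7 FPKM) were lower in Ch25h_KO without overlap. Uqcrc1, the partner of Uqcrc2, was 91.3, 91.2, 94.3 and 87.1 FPKM, with both Ch25h_WT values between the Ch25h_KO values.

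Complex IV, cytochrome c oxidase, reduces oxygen, with nuclear subunits around a mitochondrially encoded core. The median log2 change over its 13 tested subunits was 0.023, with 8 above 0 and 5 below. Cox8a was 239 and 246 FPKM in Ch25h_WT and 308 and 285 FPKM in Ch25h_KO, without overlap (log2 change 0.29, SE 0.064, limma adjusted p = 0.12). Cox6a1 was 309, 296, 367 and 334 FPKM (log2 change 0.21, SE 0.070) and Cox7c was 71.0, 57.1, 80.9 and 80.9 FPKM (log2 change 0.34, SE 0.11), each with limma adjusted p close to 0.2. The change of Cox7c was 0.49 without Ch25h_WT replicate 1 and 0.19 without Ch25h_WT replicate 2. Cox7a2l was 138, 139, 152 and 152 FPKM, while its paralogue Cox7a2 was 74.6, 82.9, 77.8 and 82.6 FPKM with overlapping groups. The early-assembling subunits Cox4i1 and Cox5a did not pass either threshold, although Cox4i1 was higher and Cox5a lower in Ch25h_KO without overlap. Cox4i1 had a log2 change of 0.023 (95% interval -0.11 to 0.16), and Cox5a was 170, 172, 163 and 159 FPKM. Cox6c (189, 185, 181 and 170 FPKM; 169.7) and Cox7b (53.3, 58.1, 51.1 and 51.9 FPKM) were on the lower side without overlap, and neither passed the unadjusted threshold. Cox6b1 was 258, 256, 252 and 265 FPKM, with overlapping groups. Cox7a1, at few fragments, was lower without overlap, and Cox6a2, at 2.36, 1.77, 4.20 and 2.45 FPKM, was higher without overlap.

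In complex V the median log2 change was 0.044, with 10 subunits above 0 and 5 below. The changes ran from -0.13 (Atp5f1) to 0.15 (Atp5e), and 0 of its 15 subunits had an unadjusted p under 0.05 (limma). Without Ch25h_KO replicate 1 the change was -0.20 for Atp5f1 and 0.086 for Atp5e, and the highest was Atp5k at 0.19. Without Ch25h_KO replicate 2 it was -0.056 for Atp5f1 and 0.21 for Atp5e, and the lowest was Atp5j at -0.105. The catalytic pair had changes close to 0, although for both genes the Ch25h_KO values lay below the Ch25h_WT values without overlap. Atp5a1, the alpha subunit, was 194, 194, 192 and 189 FPKM, and Atp5b was 376, 372, 364 and 371 FPKM. For each, the 95% interval of the log2 change ran from -0.16 to 0.11. Atp5e, the small epsilon subunit of the central stalk, was 314, 297, 352 and 324 FPKM, higher in Ch25h_KO without overlap (limma adjusted p = 0.32). Atp5f1, the peripheral stalk subunit b, was 94.7, 95.4, 91.3 and 82.3 FPKM, lower without overlap (limma adjusted p = 0.36). The central stalk subunit gamma (Atp5c1) was 82.0, 88.7, 84.0 and 78.0 FPKM and delta (Atp5d) 120, 126, 136 and 126 FPKM (120.4 and 125.6 in Ch25h_WT, 136.4 and 126.3 in Ch25h_KO).

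The spread between libraries was not even over the subunits. Ch25h_KO replicate 1 was the highest library for 35 of 76 subunits, against 22, 10 and 9 for Ch25h_WT replicates 2 and 1 and Ch25h_KO replicate 2. Over all tested loci Ch25h_KO replicate 1 was the highest for 2525 of 10074. In complex I the median deviation from the mean of the 4 libraries was 0.069 in Ch25h_KO replicate 1 and -0.0072 in Ch25h_KO replicate 2. Without Ch25h_KO replicate 1 the median log2 change over all subunits was 0.017, against 0.047 with all 4 libraries. The median of complex III was then -0.010, against 0.083 with all 4. Without Ch25h_KO replicate 2 the median of complex IV was -0.015, against 0.023 with all 4.

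**Figure D3:**
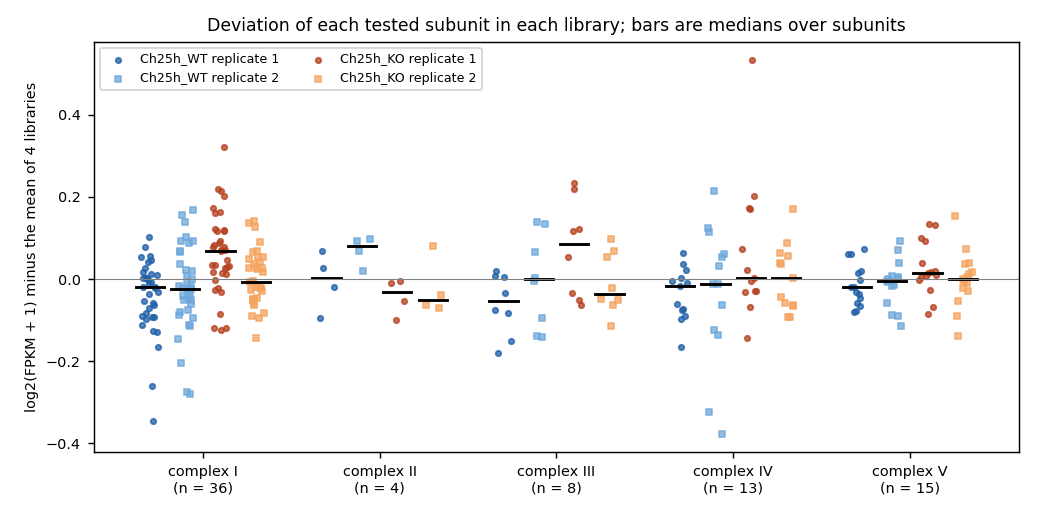
Deviation of each tested subunit in each library from its mean over the 4 libraries, on the log2(FPKM + 1) scale, by complex; bars are medians over subunits. In complexes I and III the bar of Ch25h_KO replicate 1 stands above the other 3, at 0.069 and 0.085.

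Changes differed between classes of transcript length. The tested subunits had a median transcript length of 722 bases (722.5), against 2652 bases for all tested loci. Of the 45 subunits under 800 bases 32 were above 0 (median 0.059), and of the 18 of 800 to 1500 bases 12 were (median 0.064). Of the 13 over 1500 bases 4 were (median -0.024), so the change did not fall evenly with length. The same classes over all tested loci had medians of 0.023, 0.016 and -0.022. In the loci under 800 bases Ch25h_KO replicate 1 was again the highest library most often, for 224 of 620. After a correction for length and GC content within each library the median over subunits was 0.018, beside -0.0021 over all tested loci. At unadjusted p under 0.05, 7 subunits were then higher and 3 lower (10.4% and 9.87% of all tested loci), and no subunit passed after adjustment. The corrected log2 changes were 0.20 for Cox8a, 0.21 for Uqcr11, 0.22 for Uqcrfs1, 0.27 for Ndufb6 and -0.12 for Sdha. Of the 14 subunits at unadjusted p under 0.05 before correction, 2 moved by over 1.5 times, Cox6a1 from 0.21 to 0.12 and Ndufa13 from 0.19 to 0.11. Across the 76 subunits, which share libraries and are not replicates, the Spearman correlation of change with length was -0.19 and with GC content 0.30.

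**Figure D4:**
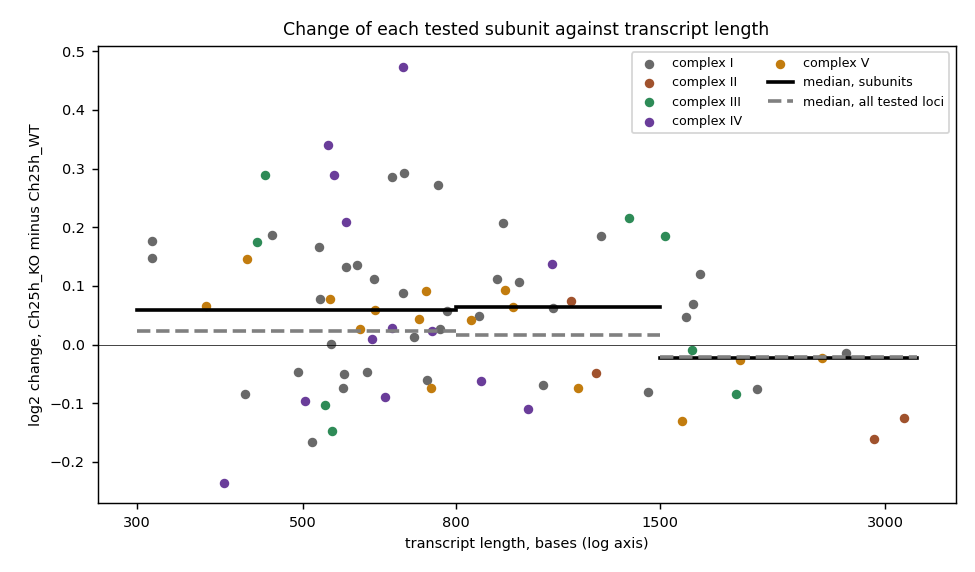
The log2 change (log2(FPKM + 1), Ch25h_KO minus Ch25h_WT) of each tested subunit against its transcript length on a log axis, coloured by complex; black lines are medians over subunits and dashed grey lines medians over all tested loci in the same length class. Both lines lie above 0 below 1500 bases and at about -0.02 beyond, where Sdha and Sdhc are the longest.

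Under limma with a mean-dependent prior and outlier protection (its trend and robust options), 7 subunits passed at adjusted p under 0.05, beside 786 of all tested loci (7.8%). Those 6 higher were Cox8a (limma adjusted p = 0.0069), Uqcr11 (0.015), Uqcrfs1 (0.022), Ndufb6 (0.035), Uqcr10 (0.037) and Cox6a1 (0.040), beside 4.04% of all tested loci called higher. The 1 lower was Ndufa3 (0.042), beside 3.76% of all tested loci called lower. In this setting 3 of 8 subunits of complex III were called and none of the 15 of complex V or the 4 of complex II.

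Atp5sl, now named Dmac2, encodes a factor for assembly of the distal membrane arm of complex I. It was 6.40 and 6.25 FPKM in Ch25h_WT and 8.05 and 8.30 FPKM in Ch25h_KO, without overlap (log2 change 0.32, SE 0.053, limma adjusted p = 0.098). With the filter raised to 5 FPKM its limma adjusted p was 0.048, and with trend and robust options 0.036. Atp5s, now Dmac2l, was 0.786, 0.842, 0.613 and 0.802 FPKM and was not tested.

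Subunits outside the symbol rule, carriers and assembly factors were taken from lists. Counts at unadjusted p under 0.05 in these and the later lists stand beside 9.38% higher and 11.5% lower over all tested loci. Of 5 such subunits 0 passed (limma), and 1 was higher at unadjusted p under 0.05. That was Usmg5, a small membrane subunit of the ATP synthase, at 205, 229, 290 and 245 FPKM (290.4 and 245.0 in Ch25h_KO). Cyc1, the cytochrome c1 of complex III, was 75.8, 73.5, 82.8 and 81.1 FPKM, higher without overlap (limma adjusted p = 0.25), and Ndufab1, the acyl carrier protein of complex I, was 35.5, 44.5, 37.8 and 35.0 FPKM. Cycs, cytochrome c itself, was 37.7, 37.5, 40.4 and 34.8 FPKM. Of 14 genes of cytochrome c and coenzyme Q synthesis 2 were higher and 0 lower at unadjusted p under 0.05, with a median log2 change of 0.074. Pdss1, which starts the coenzyme Q side chain, was 0.754, 0.879, 1.16 and 1.24 FPKM.

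Of 39 tested assembly factors in 3 lists, none passed after adjustment. The 12 for complex I had a median log2 change of -0.040, with 0 higher and 1 lower at unadjusted p under 0.05. This was Ndufaf7, a methyltransferase, at 1.95, 2.14, 1.54 and 1.65 FPKM. The 6 for complexes II and III had a median of -0.0076 with 0 at unadjusted p under 0.05 (limma), and Sdhaf1, an assembly factor of complex II, was 28.8, 30.2, 28.2 and 30.7 FPKM. The 21 for complexes IV and V had a median of 0.029, with 3 higher and 1 lower (14.3% and 4.76%). Cox18, which inserts a membrane domain of a complex IV core subunit, was 3.13, 2.79, 3.80 and 3.81 FPKM. Lrpprc, which stabilises mitochondrial mRNAs, was 11.6, 12.5, 10.2 and 10.3 FPKM.

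Regulators of mitochondrial DNA expression and biogenesis gave a median log2 change of -0.0072 over 13 tested genes, with 1 higher and 0 lower at unadjusted p under 0.05. Nrf1 was 12.8, 13.2, 11.8 and 12.2 FPKM (log2 change -0.11, limma adjusted p = 0.34). Gabpa was 9.81, 8.67, 8.35 and 8.23 FPKM, and Gabpb1, its partner, was 8.51, 8.24, 9.41 and 9.51 FPKM. Tfam, which packages and transcribes mitochondrial DNA, was 6.20, 6.39, 6.51 and 6.01 FPKM. The coactivator gene Ppargc1b was at 0.298 to 0.573 FPKM and Ppargc1a at 0 to 0.023 FPKM, below the filter.

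Neighbouring gene sets are given side by side with no test of the difference. The 13 tested enzymes of the citric acid cycle had a median log2 change of 0.0032, with 0 higher and 2 lower at unadjusted p under 0.05. These were Fh1, fumarase, the enzyme after complex II in the cycle, at 22.8 and 23.2 against 19.0 and 19.0 FPKM (limma adjusted p = 0.11), and Suclg1, of the step before complex II, at 28.2, 26.4, 22.7 and 24.4 FPKM. Suclg2 went the other way without overlap, at 4.60, 3.92, 5.09 and 4.81 FPKM (log2 change 0.18), as did Mdh2 (log2 change 0.082). Of the 13 enzymes 4 were higher and 4 lower without overlap (30.8% each, against 23.4% and 30.3% of all tested loci). The 18 tested glycolytic enzymes had a median of -0.16, with 2 called lower (Tpi1 and Pfkl; limma, 0.208% of all tested loci called lower) and with 1 higher and 9 lower at unadjusted p under 0.05 (5.56% and 50%). The 75 mitochondrial ribosomal proteins, with a median transcript length of 1226 bases, had a median of 0.044, with 7 higher and 1 lower at unadjusted p under 0.05 (9.33% and 1.33%). The 80 tested cytosolic ribosomal proteins, with a shorter median length of 784.5 bases, had a median of -0.015, with 4 higher and 5 lower (5.0% and 6.25%). The 13 subunits of the 20S proteasome core had a median of -0.0010 with 0 higher and 1 lower.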

How the data were processed

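RNA-seq values of 4 libraries were analysed, 2 per genotype. The authors deposited a table of FPKM per locus; its header does not name the unit, which was taken from the values and the Cufflinks-type locus identifiers. Per the submitters' processing notes, bcl2fastq, TopHat2 2.0.14, Cufflinks 2.2.1 and mm9 were used; the sources used here do not give annotation, strandedness or settings. The 24192 lines were joined into 23735 loci; 0 sample columns were left out, and each member locus carried 1 symbol.

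Relative depth came from the most common ratio among low values. After scaling, 90.5% of 3355 low loci held whole multiples of a fragment value (tolerance 0.01), and 1279 of them with transcript lengths gave the implied depth. Fragments per subunit are approximate, and their errors cover counting only. Lengths and GC content came from GENCODE vM21 transcripts.

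Differences were tested with limma 3.58.1 (R 4.3.3) on log2(FPKM + 1), two-sided, keeping loci that averaged 1 FPKM or more, genotype as the single term, Benjamini-Hochberg adjusted over all 10074 loci. On this scale low genes' changes are understated. The test was checked on simulated data. Members and lists were chosen with earlier results of these data known. Named are, per complex, at most 3 higher and 3 lower members by smallest p, the highest and lowest by level, all of complex II, isoform families, catalytic subunits, Atp5s, Atp5sl, Ch25h, and at most 2 higher and 2 lower genes per list; other genes were named after their values were seen. One member, counted in all sums, is not reported here by name. Lists were described by counts and medians. In all, 11 alternatives were run.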

Additional observations from a re-analysis of the deposited data

How the results depend on the processing

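The choice of model moved the count of calls. Under the 11 alternatives no subunit passed after adjustment except with trend and robust options, which called 7 subunits and 786 loci, with 17 subunits higher and 6 lower at unadjusted p under 0.05 (10.95% and 12.4% of all tested loci). Of all loci 18 were called with no filter and 175 with a mean of at least 5 FPKM. The labels do not say whether equal replicate numbers pair the samples. Over all tested loci the correlation of same-numbered deviations was 0.012, which does not decide this. With the replicate block 6 loci and 0 subunits were called, and 12 subunits were higher and 1 lower at unadjusted p under 0.05 (8.91% and 10.1% of all tested loci). Median ratio scaling moved the median of all loci by 0.015 and gave medians of 0.040 for complex IV, 0.060 for complex V, and turned the sign of 2 of 76 subunits, Ndufs1 (0.0012) and Uqcrc1 (0.0070). No filter gave 0.026 for complex IV.

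The length and GC correction gave 7 subunits higher at unadjusted p under 0.05, and medians of 0.018 over all subunits, 0.020 (0.0205) in complex I, -0.012 in complex IV and 0.0042 in complex V. It turned the sign of 8 of 76 subunits, Ndufb9 (-0.038), Atp5a1 (0.0037), Atp5g1 (-0.038), Cox4i1 (-0.048), Cox6b1 (-0.012), Cox7a2 (-0.00058), Ndufa11 (-0.084) and Ndufs1 (0.019), none of which was called in any setting. The cause of these differences was not tested.

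Leaving out each library in turn gave 13 to 21 called loci, 0 called subunits, 3 to 12 subunits higher and 0 to 1 lower at unadjusted p under 0.05, and 29 to 40 higher and 21 to 28 lower without overlap, where a group held fewer samples. The medians ran from 0.017 to 0.058 over all subunits, 0.017 to 0.103 in complex I, -0.127 to -0.047 in complex II, -0.010 to 0.129 in complex III, -0.015 to 0.044 in complex IV and 0.025 to 0.057 in complex V. With 1 library in a group, the groups separate more readily by chance. No conclusion is drawn from counts of subunits past a threshold or without overlap in these fits. Of 76 subunits 20 turned sign without at least 1 of the libraries. Among those chosen to be named these were Atp5g1 (-0.048 to 0.099), Cox6b1 (-0.027 to 0.044), Cox7a2 (-0.048 to 0.104), Ndufa11 (-0.092 to 0.092), Ndufa4 (-0.18 to 0.088), Ndufs1 (-0.056 to 0.027), Ndufs3 (-0.16 to 0.019) and Ndufs8 (-0.12 to 0.23).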
